A study of Homo sapiens with 12 samples.

Results

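Mitochondrial transcripts read from both strands of the mitochondrial genome, and the 2 genes of the enzyme that degrades them, were followed through 12 libraries of RNA collected with the J2 antibody, which binds double-stranded RNA. The members were every row of the deposited count table on chrM, by strand, and every row lying wholly in the gene body of PNPT1 or SUPV3L1 on the strand of the gene. They came to 215 of 5254113 rows. Of these, 4 lay on chrM (3 on the plus strand and 1 on the minus strand), 140 in PNPT1 and 71 in SUPV3L1.

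The cells were NCI-H1944, an established human lung adenocarcinoma line. SCR cells are wild type by their genotype label, whereas in IFNAR1sg cells the gene IFNAR1, for a chain of the type I interferon receptor, was knocked out. All cultures grew in the same medium, which held penicillin-streptomycin and plasmocin. MPS1i was BAY-1217389, an inhibitor of the mitotic kinase MPS1, given at 100 nM over 48 h, and DMSO was the control. It was then washed out and the cells were kept for 24 h more. In the groups labelled IFNb, recombinant interferon beta at 5 ng/ml was present in those 24 h. Each of the 6 groups (SCR or IFNAR1sg with DMSO, MPS1i or IFNb) had 2 libraries. The labels do not say whether the knockout was 1 clone or a pool, nor whether libraries came from separate cultures. The spread between libraries may therefore be technical, and an edgeR p-value rests mostly on the spread shared over all features. Input RNA was not analysed here. In these bulk J2 libraries more RNA of a kind, more of it double-stranded, fewer cells making it and less RNA per cell cannot be told apart.

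Human mitochondrial DNA is transcribed from both strands along nearly its whole length. The plus-strand RNA, made on the heavy strand as template, carries both ribosomal RNAs and all but 1 of the mitochondrial mRNAs. The minus-strand RNA, made on the light strand, carries MT-ND6 and a few tRNAs, and most of it lies opposite the genes and is quickly removed. Where both RNAs persist they can pair into mitochondrial double-stranded RNA, a ligand of the cytosolic sensor MDA5 (IFIH1) when it leaves the mitochondrion. SUPV3L1 encodes SUV3, the helicase that unwinds RNA in the mitochondrial degradosome, and PNPT1 encodes PNPase, its exoribonuclease. PNPT1 is also known as a gene induced by type I interferon.

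RNA pairing was not measured by position, so only complementary letters of the strands are shown here. The first 30 bases are given for MT-ND6 and MT-RNR1. MT-ND6 is the only mRNA encoded on the minus strand, and MT-RNR1 is the small ribosomal RNA of the plus strand. Each is followed by its complement on the other strand, 5′ to 3′, from the GENCODE transcripts of hg38. No letters are capitalised, since no motif was searched for in them. MT-ND6 begins at chrM:14644-14673 on the minus strand, and MT-RNR1 at chrM:648-677 on the plus strand.
MT-ND6, minus strand: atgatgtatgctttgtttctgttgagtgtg
complement on the plus strand: cacactcaacagaaacaaagcatacatcat
MT-RNR1, plus strand: aataggtttggtcctagcctttctattagc
complement on the minus strand: gctaatagaaaggctaggaccaaacctatt

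The table divides chrM coarsely. Its single minus-strand row runs from 0 to 16569, the whole molecule, so minus-strand reads have no position within it. In that row 6.49% of bases lie in genes of the minus strand (MT-ND6 and 8 tRNAs) and 86.2% lie opposite genes of the plus strand. The plus strand has a row from 0 to 877, a row from 888 to 2589 within the 2 ribosomal RNA genes and the tRNA between them, and a row from 2746 to 16569 that holds the end of MT-RNR2 and all the plus-strand mRNAs. Coordinates are printed as deposited, where the start of 0 shows counting from 0. The rows reach the 1st, 2nd and 9th place of the whole table by reads: 469715 reads in the ribosomal row, 422858 in the row with the mRNAs and 173342 in the minus-strand row. The row from 0 to 877 had 528 reads. Per kb of row, that is 275978 reads in the ribosomal row, 30589 in the row with the mRNAs and 10461 on the minus strand. The ribosomal row was thus the densest, and the minus strand the least dense of these 3. Minus-strand reads made up 16.3% of all chrM reads.

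Across the whole series, libraries held 3739443 to 7430687 reads, and chrM took 1.03% to 2.14% of them. Of 9 lung epithelial markers 6 were tested, and their summed level ran from 2074 to 5175 CPM (reads relative to library size, scaled with TMM factors) while KRT19 and NKX2-1 had no reads in gene sums. Summed fibroblast markers ran from 1.16 to 20.5 CPM, with COL1A2 and PDGFRA without reads, and summed immune markers from 0.667 to 8.03 CPM, where CD68 had no reads. These sums varied with treatment. Fibroblast markers were at 1.16 to 2.50 CPM with DMSO in either genotype and at 15.5 to 20.5 CPM with MPS1i, and immune markers at 0.667 to 2.17 and 4.91 to 8.03 CPM. With IFNb fibroblast markers were at 5.27 to 7.06 CPM in SCR and 1.90 to 4.25 in IFNAR1sg, and immune markers at 1.13 to 2.23 and 0.680 to 1.90 CPM. In SCR, epithelial markers were at 2074 to 2219 CPM with DMSO, 3498 to 3914 with MPS1i and 4704 to 5175 with IFNb. In IFNAR1sg they were at 2345 to 2402, 2461 to 2879 and 3203 to 3846 CPM. The part of these levels in the treatment results was not tested. The 2 SCR IFNb libraries stood apart: 295367 and 296843 rows held reads there, against 566704 to 935974 in the other 10 libraries. In them 49.6% and 47.9% of reads lay in rows sharing a base with an exon, against 33.2% to 39.7% elsewhere, and the part of this in any SCR IFNb result was not tested. The targeted gene, IFNAR1, had SCR levels of 17.2 and 18.01 CPM (DMSO), 16.7 and 14.7 CPM (MPS1i) and 14.5 and 11.7 CPM (IFNb). Its IFNAR1sg levels were 8.67 and 7.33 CPM (DMSO), 6.71 and 5.56 CPM (MPS1i) and 6.79 and 5.44 CPM (IFNb), each lower than every SCR library. With DMSO the genotypes differed by -1.15 ± 0.26 (edgeR adjusted p = 0.0221). Reads over the gene body do not show the cut of a guide or whether protein was made.

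The first comparison asked how each mitochondrial strand changed when cells were treated with MPS1i. In SCR cells the plus-strand level was 11765 and 11338 CPM with DMSO and 24272 and 21649 CPM with MPS1i, where both values lay above both controls. The difference was 0.99 ± 0.10 on the log2 scale (± SE, n = 2 libraries a group; edgeR adjusted p = 2.50e-13). The minus strand read 3299 and 3707 CPM with DMSO and 3307 and 3283 CPM with MPS1i, with 1 treated value within the control range and 1 just below it. Its difference was -0.09 ± 0.10 (adjusted p = 0.493), and -0.26 without TMM factors (adjusted p = 0.0130). In this contrast 41.1% of the 15094 gene and chrM-strand sums tested were called, so a call by itself is common here.

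In IFNAR1sg cells the plus strand also rose with MPS1i, from 12600 and 13938 CPM to 22909 and 15463 CPM, by 0.53 ± 0.10 (adjusted p = 1.16e-05; 43.1% of sums called). The groups did not overlap, but the 2 treated libraries lay far apart, and the rise was 0.26 without MPS1i replicate 1 and 0.77 without replicate 2. The minus strand read 2947 and 3895 CPM with DMSO and 3194 and 3047 CPM with MPS1i, and the treated values lay between the controls (-0.13 ± 0.10, adjusted p = 0.279). Without TMM factors its change was -0.26 (adjusted p = 0.00951), and without DMSO replicate 1 it was -0.31 (adjusted p = 0.0188). Without DMSO replicate 2 its sign turned (0.093, adjusted p = 0.554). The plus-strand change in SCR minus that in IFNAR1sg was 0.46 ± 0.14, which did not pass the threshold (adjusted p = 0.0749; 2.07% of sums called). It was 0.74 without IFNAR1sg MPS1i replicate 1 (adjusted p = 9.18e-06) and 0.22 without replicate 2 (adjusted p = 0.526). It also passed, between 0.42 and 0.53, without either SCR DMSO library, without IFNAR1sg DMSO replicate 1 and without either IFNAR1sg IFNb library. With the replicate number as a block it was called (0.47, adjusted p = 6.00e-04), as it was without TMM factors (0.43, adjusted p = 0.0360) and with no filter (0.46, adjusted p = 0.00117).

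With IFNb the strands parted in SCR cells. The plus strand read 17506 and 17014 CPM, above the 11765 and 11338 CPM of DMSO, a rise of 0.58 ± 0.10 (adjusted p = 1.16e-06; 45.1% of sums called). The minus strand fell in the same libraries to 1874 and 2005 CPM, below both DMSO values, with a change of -0.85 ± 0.10 (adjusted p = 1.06e-11). The median of all sums in this contrast was -0.28, so the plus strand rose while most sums with a call were lower (29.1% of sums against 16% higher). Without TMM factors, that median was -0.60 and the plus-strand change 0.26 (adjusted p = 0.00835).

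In IFNAR1sg cells the minus strand fell with IFNb too, to 1971 and 1906 CPM from 2947 and 3895 CPM. The change was -0.82 ± 0.10 (edgeR adjusted p = 9.79e-10), a p that rests mostly on the spread shared over all features. The 2 DMSO libraries lay far apart, and with 1 library left out at a time the change ran from -0.98 to -0.57. Only 1.95% of sums were called in this contrast. IFIH1 rose with IFNb in these cells by 1.18 ± 0.14 and PNPT1 by 0.61 ± 0.13. Of 17 measured genes for release and sensing of mitochondrial RNA, 7 rose and 0 fell, so the IFNAR1sg cells still changed with IFNb. The part of the receptor in the minus-strand fall was not tested. The minus-strand levels with IFNb were 1939 ± 93.0 CPM in SCR and 1938 ± 46.6 CPM in IFNAR1sg (mean ± SD, n = 2). Their TMM factors were 0.768 and 0.781 in SCR and 1.03 and 1.08 in IFNAR1sg, so the likeness of these levels rests on that scaling. The plus strand in IFNAR1sg read 10119 and 10240 CPM with IFNb, below both DMSO values of 12600 and 13938 CPM. Its change was -0.38 ± 0.10 (edgeR adjusted p = 0.0215). This call was lost without DMSO replicate 2 (-0.27, adjusted p = 0.409), without IFNb replicate 1 (-0.35, adjusted p = 0.108) and with DESeq2 (-0.41, adjusted p = 0.315).

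The difference between genotypes was tested directly. For IFNb, the plus-strand change in SCR exceeded that in IFNAR1sg by 0.96 ± 0.14 (adjusted p = 7.80e-08; 29.9% of sums called). For the minus strand the same difference was -0.03 (adjusted p = 0.893), with a sign that turned with DESeq2 size factors (0.03) and a call without TMM factors (-0.31, adjusted p = 0.0390). Between genotypes with DMSO alone, the plus strand differed by 0.20 ± 0.10 (adjusted p = 0.612) and the minus strand differed by -0.03 ± 0.10 (adjusted p = 0.962), with 0.205% of sums called. MPS1i and IFNb were both compared with the same DMSO libraries, so their changes are not independent of each other.

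**Figure D1:**
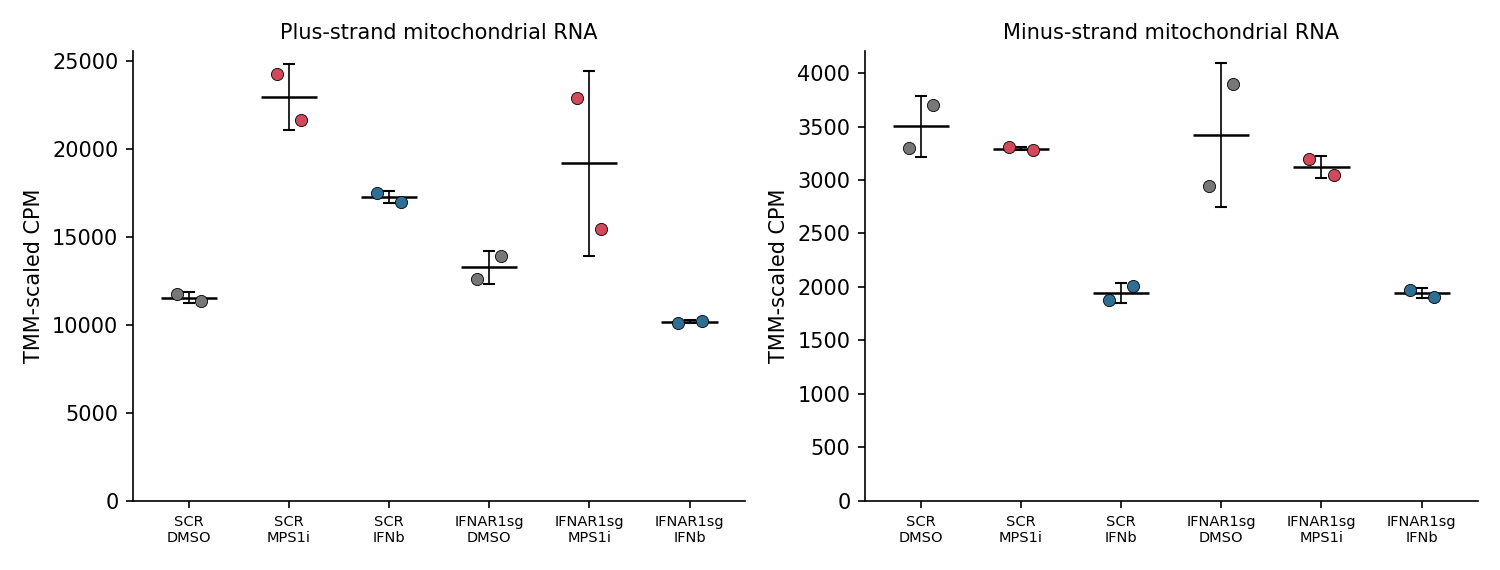
TMM-scaled CPM of plus-strand (left) and minus-strand (right) chrM reads in the 6 groups; points are libraries, bars the mean ± SD of 2. The 3 highest plus-strand values are MPS1i libraries, at 24272, 22909 and 21649 CPM, and the 4 IFNb libraries lie lowest on the minus strand, between 1874 and 2005 CPM.

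The 2 large plus-strand rows moved together but not by the same amount. The ribosomal row rose with MPS1i in SCR by 1.12 ± 0.10 (adjusted p = 1.88e-14 over the 89111 rows tested; 17.5% called), and the row with the mRNAs by 0.85 ± 0.10 (adjusted p = 1.94e-10). In IFNAR1sg the same rows rose by 0.67 ± 0.10 (adjusted p = 6.48e-07; 17.3% called) and 0.38 ± 0.10 (adjusted p = 0.00408). With IFNb in SCR the ribosomal row rose by 0.68 ± 0.10 (adjusted p = 1.21e-07; 33% called) and the row with the mRNAs by 0.47 ± 0.10 (adjusted p = 1.20e-04). With IFNb in IFNAR1sg the row with the mRNAs fell by 0.54 ± 0.10 (adjusted p = 3.39e-04; 0.68% called), while the change of the ribosomal row was -0.23 ± 0.10 (adjusted p = 0.454). Thus in each of these 4 contrasts the ribosomal row had the higher fitted value, a difference between rows that was not itself tested. Ribosomal reads per 100 reads of the row with the mRNAs were 90.3 and 104 in SCR DMSO and 90.4 and 104 in IFNAR1sg DMSO. They were 116 and 117 for SCR MPS1i, 108 and 117 for SCR IFNb, 122 and 115 in IFNAR1sg MPS1i, and 122 and 119 in IFNAR1sg IFNb. All 8 treated libraries lay above all 4 DMSO libraries in this ratio.

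Pairing needs both strands, so the ratio of minus-strand to plus-strand reads was followed next; it is taken within a library and does not depend on scaling between libraries. Minus reads per 100 plus reads were 28.04 and 32.7 in SCR DMSO and 23.4 and 27.9 in IFNAR1sg DMSO. With MPS1i they were 13.6 and 15.2 in SCR, and 13.9 and 19.7 in IFNAR1sg. With IFNb they were 10.7 and 11.8 in SCR, and 19.5 and 18.6 in IFNAR1sg. Every treated library lay below every DMSO library, and the SCR IFNb libraries were the lowest of all 12.

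On the log2 scale the mean difference of the ratio, MPS1i minus DMSO, was -0.85 (-1.08 in SCR and -0.63 in IFNAR1sg; exact two-sided permutation test within genotype, p = 0.0556, adjusted p = 0.167 over 6 tests). IFNb minus DMSO was -0.93 (-1.43 in SCR and -0.43 in IFNAR1sg; exact permutation p = 0.0556, adjusted p = 0.167). Both are the smallest p that 36 relabellings allow, so neither could pass 0.05. The genotypes differed by 0.24 (IFNAR1sg minus SCR within treatment; exact permutation p = 0.185, adjusted p = 0.278). That difference was -0.02 without both SCR IFNb libraries (adjusted p = 0.944). Within treatments it was -0.24 with DMSO, 0.21 with MPS1i and 0.76 with IFNb.

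The mean chrM share of reads was highest in the MPS1i group of each genotype, though in IFNAR1sg 1 MPS1i library (1.53%) lay below 1 DMSO library (1.58%). It was 1.33 ± 0.00303% in SCR DMSO, 2.06 ± 0.113% in SCR MPS1i and 1.35 ± 0.00334% in SCR IFNb (mean ± SD, n = 2). In IFNAR1sg it was 1.48 ± 0.141% with DMSO, 1.80 ± 0.384% with MPS1i and 1.04 ± 0.0166% with IFNb. The mean difference was 0.53 percentage points for MPS1i (exact permutation p = 0.111, adjusted p = 0.222; 0.16 points without the ribosomal row) and -0.20 for IFNb (exact permutation p = 0.333, adjusted p = 0.333). Neither passed the threshold.

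**Figure D2:**
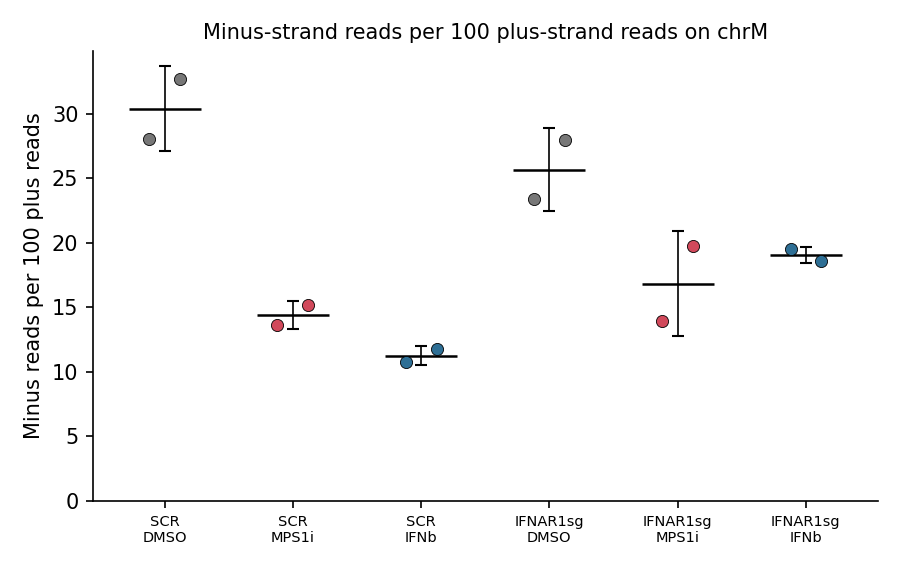
Minus-strand reads per 100 plus-strand reads on chrM in each group; points are libraries, bars the mean ± SD of 2. The 4 DMSO libraries lie between 23.4 and 32.7, and the 8 treated libraries between 10.7 and 19.7.

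PNPT1, the exoribonuclease of the degradosome, lies at chr2:55634265-55693910 on the minus strand (hg38, ENSG00000138035.14). Its 140 rows held 3568 reads; 123 rows had any read and none shared a base with an exon, so its values are intronic throughout. Rows naming an Alu repeat, a sequence that folds into double strands when 2 inverted copies share a transcript, numbered 36 and held 52.5% of these reads. GENCODE lists 2 PNPT1-like pseudogenes, and the treatment of reads with more than 1 mapping place is not stated.

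Summed over its rows, SCR levels of PNPT1 were 39.8 and 41.8 CPM (DMSO), 76.0 and 82.3 CPM (MPS1i), and 129.7 and 113 CPM (IFNb). The 3 SCR groups did not overlap. In IFNAR1sg it read 43.4 and 45.7 CPM with DMSO, 44.8 and 44.0 CPM with MPS1i, and 66.0 and 70.2 CPM with IFNb. There the summed MPS1i values lay within the DMSO range and the IFNb values above it. PNPT1 thus rose with MPS1i in SCR by 0.96 ± 0.14 (adjusted p = 1.98e-08) and with IFNb by 1.57 ± 0.14 (adjusted p = 6.30e-17). In IFNAR1sg the MPS1i change was -0.01 ± 0.14 (adjusted p = 0.976), while IFNb raised it by 0.61 ± 0.13 (adjusted p = 0.00228).

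Both differences between genotypes passed the test for PNPT1. The MPS1i change in SCR exceeded that in IFNAR1sg by 0.97 ± 0.20 (adjusted p = 7.64e-04), and the IFNb change by 0.96 ± 0.19 (adjusted p = 3.74e-05). Only 1.09% of sums were called higher in the first of these contrasts and 9.62% in the second. With DMSO alone the genotypes differed by 0.13 ± 0.14 (adjusted p = 0.867). By mean level the groups ran from SCR DMSO (40.8 CPM) through IFNAR1sg MPS1i (44.4), IFNAR1sg DMSO (44.5), IFNAR1sg IFNb (68.1) and SCR MPS1i (79.1) to SCR IFNb (121 CPM). The first 3 lay close together, and the 2 IFNAR1sg groups among them overlapped.

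Of the 140 rows, 16 passed the filter on low counts. A row could pass through 1 group where it was high, so counts over these 16 describe them only. With IFNb in SCR 8 of the 16 were called higher (15% of all rows tested were), and with MPS1i in SCR 2 of them (9.55%). The row with the most reads, 588, lay in intron 1 at 55692531 to 55693662 and held an AluSz. It read 6.83 and 6.20 CPM in SCR DMSO, 24.5 and 21.1 in SCR IFNb, 4.22 and 4.62 in IFNAR1sg DMSO, and 16.6 and 10.5 in IFNAR1sg IFNb. It rose with IFNb by 1.80 ± 0.30 in SCR (adjusted p = 1.30e-06) and by 1.61 ± 0.31 in IFNAR1sg (adjusted p = 8.27e-04; 0.549% of rows called higher). With MPS1i it read 11.4 and 11.01 CPM in SCR and 8.47 and 6.87 CPM in IFNAR1sg, changes of 0.78 ± 0.31 and 0.78 ± 0.33 (adjusted p = 0.0683 and 0.0858). The genotype difference for MPS1i that the PNPT1 sum showed was not called in this row (-0.0049, edgeR unadjusted p = 0.989). No SE is given for that value, since it is unreliable this near 0. The difference for IFNb was not called in this row either (0.19 ± 0.44, edgeR unadjusted p = 0.661). A row at 55658972 to 55659523 was the PNPT1 row with a called difference between genotypes for IFNb (3.04 ± 0.99, edgeR adjusted p = 0.0322). In that contrast 5.11% of rows were called higher, and this row was singled out after its values were seen. It held 96 reads over all libraries. It read 0.666 and 0.387 CPM in SCR DMSO, near the floor, and 3.72 and 2.63 CPM in SCR IFNb. In IFNAR1sg it read 1.78 and 2.23 CPM with DMSO and 1.26 and 1.53 CPM with IFNb.

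In the 3 SCR groups, mean reads along PNPT1 were highest near its start. The body was divided into 3 parts of equal length, counted from the 5′ end. In SCR DMSO the first part gave 20.2 ± 0.495 CPM, the middle part 11.96 ± 0.757 and the last part 8.69 ± 1.68 (mean ± SD, n = 2). In SCR IFNb they gave 54.2 ± 1.13, 46.3 ± 6.49 and 20.9 ± 4.06 CPM. In SCR MPS1i they gave 35.7 ± 2.90, 28.8 ± 2.67 and 14.6 ± 1.15 CPM. In IFNAR1sg the parts did not all move one way with MPS1i. The first part read 24.5 and 20.8 CPM against 20.7 and 16.6 CPM with DMSO, the middle part 13.4 and 13.3 against 12.2 and 13.7, and the last part 6.88 and 9.98 against 10.4 and 15.5 CPM. The first part was thus a little higher and the last lower, without a test. Each part was higher in both libraries of each SCR treatment than in both SCR DMSO libraries.

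The PNPT1 promoter was searched on both strands for letters of interferon-response sites, since its reads moved with IFNb and MPS1i. The window was the RefSeq one (GRCh38.p14), 250 bases before to 50 after the start. GAAA, any 2 bases, then GAAA was in 1255 of 35116 promoters (3.57%) and in neither PNPT1 nor SUPV3L1. GGAA, any 2 bases, then GAAAC, letters chosen after the PNPT1 promoter was seen, was in 187 promoters (0.533%); the 2 motifs can overlap. It occurred once in PNPT1, 66 bases before the RefSeq start, and not in SUPV3L1. Its first base is at 55693910, the 5′ end of the GENCODE gene body. A match is a description of the letters and not a bound site. The stretch is shown with the match in capitals, on the gene's strand, chr2:55693891-55693919.
PNPT1 promoter, minus strand: gggcaccgcGGAAACGAAACtccatcagg

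SUPV3L1, the helicase of the degradosome, lies at chr10:69180232-69209099 on the plus strand (hg38, ENSG00000156502.13). Its 71 rows held 2188 reads, of which 51.3% lay in 1 row at 69203043 to 69203294. That row shares a single base with an exon of SUPV3L1 and so can hold reads of the exon beside it. Alu-naming rows numbered 8 and held 18.01% of reads.

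SCR levels of SUPV3L1 were 41.8 and 34.1 CPM (DMSO), 36.5 and 40.2 CPM (MPS1i), and 53.5 and 33.1 CPM (IFNb). In IFNAR1sg they read 42.5 and 29.5 CPM with DMSO, 40.6 and 39.8 CPM with MPS1i, and 33.6 and 27.7 CPM with IFNb. Every treated group overlapped its DMSO group. The changes were 0.02 ± 0.17 (adjusted p = 0.951) with MPS1i and 0.19 ± 0.18 (adjusted p = 0.418) with IFNb in SCR. In IFNAR1sg they were 0.18 ± 0.17 (adjusted p = 0.407) and -0.21 ± 0.17 (adjusted p = 0.715). The difference between genotypes was 0.40 ± 0.25 for IFNb (adjusted p = 0.237; 0.69 and adjusted p = 0.0445 without SCR IFNb replicate 2) and -0.16 ± 0.24 for MPS1i (adjusted p = 0.873).

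The SUPV3L1 sum joined rows that moved in opposite directions. The exon-adjoining row read 19.3 and 12.6 CPM in SCR DMSO and 44.6 and 26.0 CPM in SCR IFNb, and it rose by 1.14 ± 0.25 (adjusted p = 2.35e-04). With the exon-sharing rows left out, the sum was called lower with IFNb in SCR, at -1.47 ± 0.27 (adjusted p = 1.46e-06). The genotype difference for IFNb was then -0.96 ± 0.35 (adjusted p = 0.0247), against 1.05 ± 0.35 for the exon-adjoining row (adjusted p = 0.0378). In SCR IFNb the first of 3 equal parts of the gene body gave 1.68 ± 1.31 CPM and the middle part 5.24 ± 1.10, against 5.21 ± 1.35 and 9.46 ± 1.13 in SCR DMSO. The last part, which holds the exon-adjoining row, gave 36.4 ± 14.2 against 23.3 ± 5.26 CPM. Of 71 rows 6 passed the filter. A further row, at 69206328 to 69207006 with an AluSg, read 2.67 and 2.13 CPM in SCR DMSO and 0.309 and 0.216 CPM in SCR MPS1i, on 16, 11, 1 and 1 reads (adjusted p = 0.0293).

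**Figure D3:**
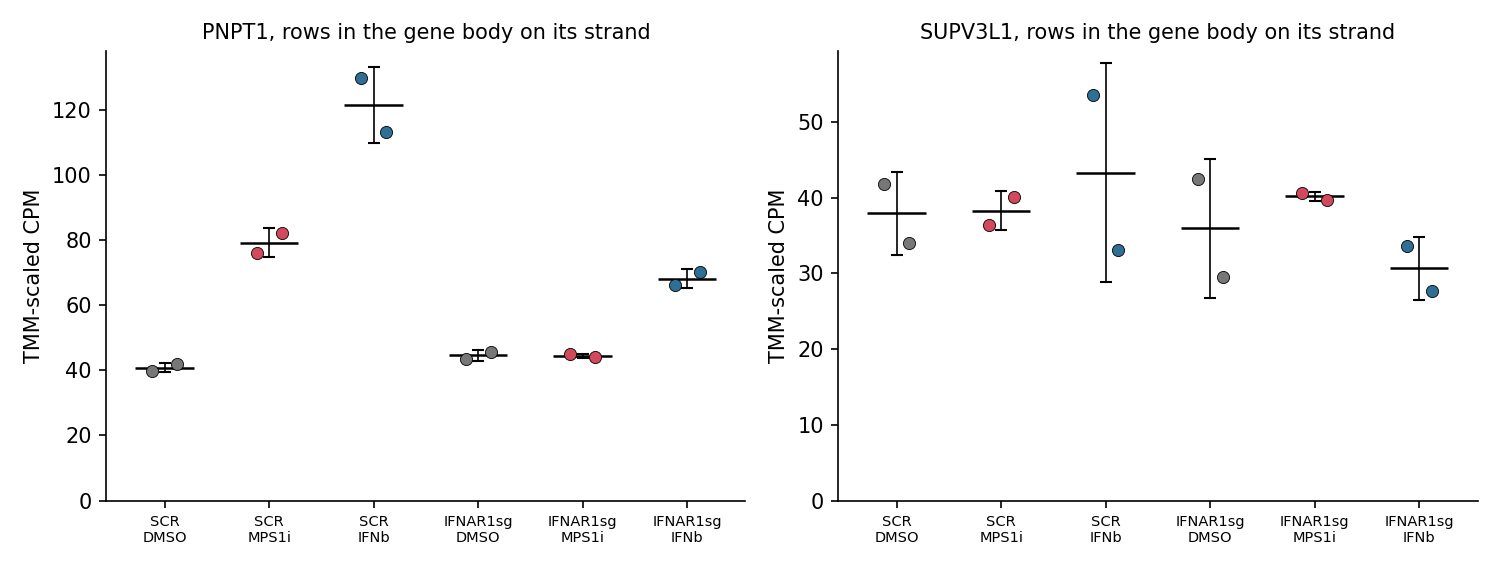
TMM-scaled CPM of reads summed over the rows of PNPT1 (left) and SUPV3L1 (right) in the 6 groups; points are libraries, bars the mean ± SD of 2. PNPT1 climbs from 40.8 CPM in SCR DMSO to 121 CPM in SCR IFNb, while every SUPV3L1 treatment group overlaps its DMSO group.

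**Figure D4:**
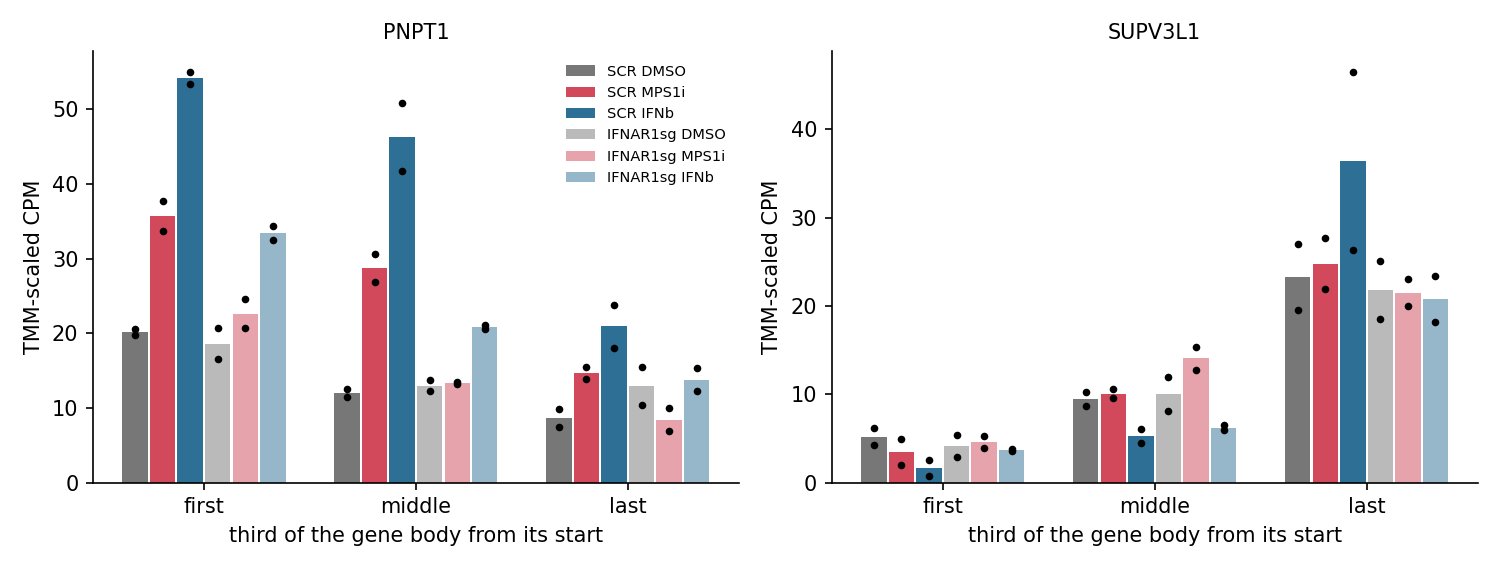
TMM-scaled CPM in 3 equal parts of the gene body, from the 5′ end, for PNPT1 (left) and SUPV3L1 (right); bars are means of the 2 libraries, points the libraries. In SCR IFNb, SUPV3L1 is lower than SCR DMSO in the first 2 parts and overlaps it in the last.

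Side by side, PNPT1 and the plus strand both rose with MPS1i and with IFNb in SCR. With MPS1i in IFNAR1sg the plus strand rose while the PNPT1 values lay within the control range. With IFNb PNPT1 rose in SCR and IFNAR1sg (1.57 and 0.61), and the minus strand fell in both (-0.85 and -0.82). With MPS1i the minus-strand change was not called in SCR or IFNAR1sg (-0.09 and -0.13), while PNPT1 rose in SCR by 0.96. A link between PNPT1 and the minus strand was not tested. The smallest unadjusted p of the SUPV3L1 sum over the 7 contrasts was 0.112 (edgeR), for the IFNb difference between genotypes.

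**Figure D5:**
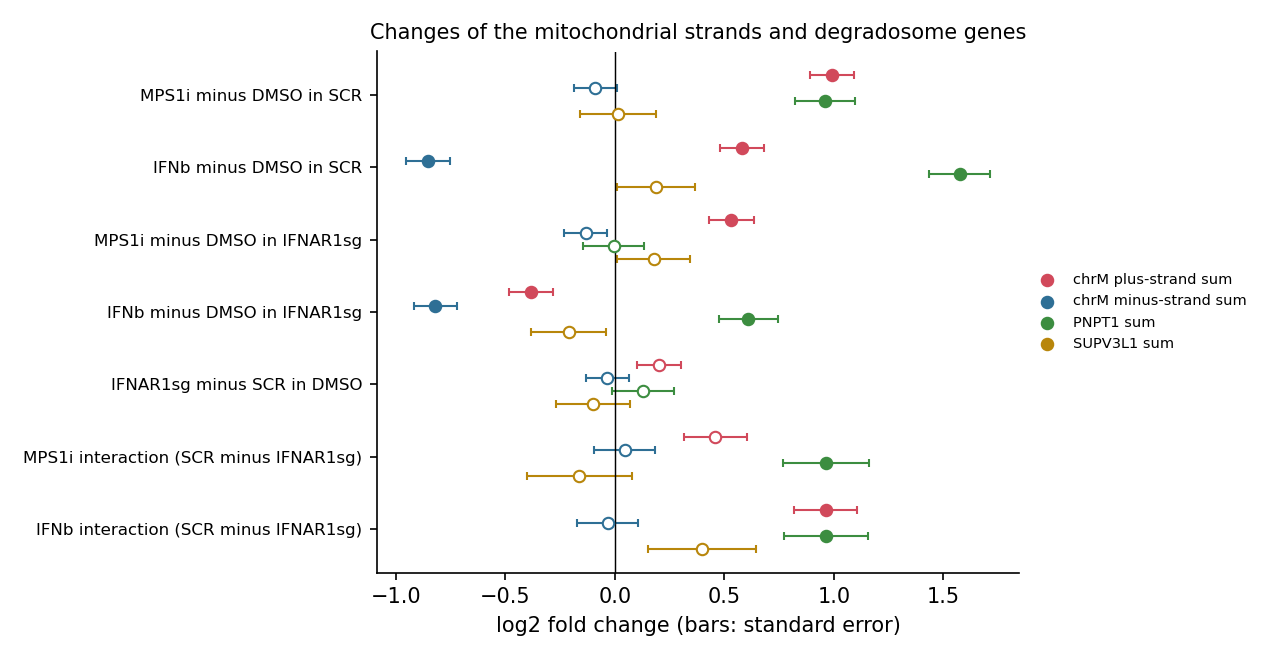
Log2 fold changes of the 2 chrM strands, PNPT1 and SUPV3L1 in the 7 contrasts, with standard errors; filled points passed an adjusted p of 0.05. PNPT1 and the plus strand have filled points for both treatments in SCR, and the minus strand for IFNb in both genotypes.

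Other genes of mitochondrial RNA turnover were read as gene sums too. Of 31 listed genes for degradation and processing 25 were measured. With MPS1i in SCR 3 rose and 2 fell, with a median change of 0.09 beside 0.19 for all sums, of which 25% were called higher and 16.1% lower. For IFNb in SCR the same shares are 16% and 29.1%, and every list count is to be read beside them. Besides PNPT1, GRSF1, which melts G-rich mitochondrial RNA for the degradosome, rose by 0.38 ± 0.14 (adjusted p = 0.0215) and MTERF4, which targets an rRNA methylase, by 0.65 ± 0.27 (adjusted p = 0.0487). MTPAP, the mitochondrial poly(A) polymerase, fell from 39.7 and 38.7 CPM to 15.8 and 17.1 CPM, with a change of -1.25 ± 0.20 (adjusted p = 2.48e-07). FASTKD1, an RNA-binding regulator of mitochondrial mRNAs, fell by 0.53 ± 0.18 (adjusted p = 0.0156). GRSF1 and MTERF4 were named after their values were seen, to complete the count.

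With IFNb in SCR 7 of the 25 rose and 6 fell (median 0.17, against -0.28 for all sums). MTPAP fell there, with a change of -1.41 ± 0.22 (adjusted p = 5.66e-08), and GRSF1 rose by 0.69 ± 0.14 (adjusted p = 1.90e-05). With IFNb in IFNAR1sg, PNPT1 was the 1 gene of the 25 called (1.95% of all sums were). With MPS1i in IFNAR1sg 3 rose and 3 fell (27.3% and 15.8% of all sums); MTPAP fell by 1.32 ± 0.18 (adjusted p = 4.50e-09). REXO2, which removes the short fragments left by the degradosome, rose by 1.01 ± 0.41 (adjusted p = 0.0367), named after its value was seen. PNPT1 was also the 1 gene of this list called for the MPS1i difference between genotypes (2.07% of all sums were).

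Genes that transcribe and package mitochondrial DNA lay on both sides. With MPS1i in SCR 1 of 21 measured rose and 6 fell (median -0.14, against 0.19 for all sums, with 25% higher and 16.1% lower). TOP3A, a topoisomerase that separates mitochondrial DNA molecules, fell from 36.7 and 35.2 CPM to 14.5 and 14.0 CPM, with a change of -1.33 ± 0.20 (adjusted p = 4.27e-08). LONP1, the matrix protease, fell by 1.26 ± 0.23 (adjusted p = 4.84e-06) and DNA2, a nuclease and helicase, fell with a change of -1.05 ± 0.16 (adjusted p = 5.02e-08). With IFNb in SCR 7 rose and 7 fell (median -0.08). TFAM, which packages mitochondrial DNA and activates its promoters, rose from 184 and 174 CPM to 362 and 374 CPM, by 1.04 ± 0.11 (adjusted p = 2.75e-13). The IFNb change of TFAM in IFNAR1sg was 0.03 ± 0.11 (adjusted p = 0.962), and the difference between genotypes was 1.01 ± 0.15 (adjusted p = 1.74e-07).

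Genes for release and sensing of mitochondrial RNA had the largest medians of the lists. With MPS1i in SCR 11 of 17 measured rose and 3 fell (median 1.504), and with IFNb in SCR 11 rose and 6 fell (median 1.79). IFIH1, the sensor MDA5, read 32.5 and 35.2 CPM in SCR DMSO, 236 and 214 CPM with MPS1i, and 311 and 274 CPM with IFNb. It rose by 2.73 ± 0.13 (adjusted p = 1.40e-31) and 3.11 ± 0.13 (adjusted p = 1.95e-35). RIGI, a second RNA sensor, rose by 3.16 ± 0.12 and 4.04 ± 0.12 (adjusted p = 4.22e-39 and 7.95e-47). OAS2, which makes the activator of RNase L, rose by 4.25 ± 0.14 and 5.68 ± 0.14 (adjusted p = 2.64e-42 and 1.49e-51). The members that fell include MAVS, the mitochondrial adaptor of these sensors, with a change of -0.80 ± 0.17 with MPS1i and -1.10 ± 0.19 with IFNb (adjusted p = 8.20e-05 and 8.35e-07). VDAC1, an outer-membrane channel, fell with both, at changes of -0.71 ± 0.17 and -0.73 ± 0.18 (adjusted p = 3.14e-04 and 3.63e-04); MAVS and VDAC1 were named after their values were seen.

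In IFNAR1sg this list still moved: 8 rose and 2 fell with MPS1i (median 0.89), and 7 rose with IFNb (median 0.88). Over all sums 27.3% were called higher and 15.8% lower with MPS1i in IFNAR1sg (median 0.20). With IFNb in IFNAR1sg 1.39% were called higher (median -0.02). IFIH1 rose there by 1.79 ± 0.14 with MPS1i (adjusted p = 1.82e-19) and by 1.18 ± 0.14 with IFNb (adjusted p = 2.69e-10). OAS2 rose by 3.04 ± 0.14 and 2.88 ± 0.14 (adjusted p = 5.79e-31 and 2.41e-29). The change of IFIH1 in SCR exceeded that in IFNAR1sg by 0.94 ± 0.19 for MPS1i (adjusted p = 6.45e-04) and 1.94 ± 0.19 for IFNb (adjusted p = 1.76e-13). PNPT1 with MPS1i in IFNAR1sg (-0.01) thus stood beside IFIH1 and OAS2 values of 1.79 and 3.04 in the same libraries.

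For genes that translate the mitochondrial mRNAs, lower calls outnumbered higher ones. Of 40 measured, 5 rose and 16 fell with MPS1i in SCR (median -0.30), and 4 rose and 19 fell with IFNb in SCR (median -0.64). Over all sums 25% were higher and 16.1% lower with MPS1i (median 0.19), and 16% higher and 29.1% lower with IFNb (median -0.28), so lower calls outnumber higher ones over all sums too with IFNb. EARS2, the mitochondrial glutamyl-tRNA synthetase, fell from 49.7 and 45.3 CPM to 14.8 and 16.6 CPM with MPS1i, with a change of -1.58 ± 0.18 (adjusted p = 1.72e-11). MRPL48, a protein of the large ribosomal subunit, fell by 1.52 ± 0.24 (adjusted p = 1.23e-07). MRPL19, of the same subunit, fell with both, at changes of -0.65 ± 0.10 with MPS1i (adjusted p = 2.06e-07) and -1.38 ± 0.11 with IFNb (adjusted p = 2.96e-19). FARS2, the phenylalanyl-tRNA synthetase, fell with IFNb, at a change of -1.39 ± 0.15 (adjusted p = 9.01e-13). In IFNAR1sg 3 rose and 18 fell with MPS1i, where 27.3% of all sums were higher and 15.8% lower. EARS2 was among those that fell, with a change of -1.52 ± 0.18 (adjusted p = 1.55e-11). With IFNb in IFNAR1sg 2 fell, where 0.563% of all sums were lower. MRPL19 was among them, with a change of -0.35 ± 0.10 (adjusted p = 0.0468).

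Nuclear-encoded respiratory chain genes were divided. With MPS1i in SCR 5 of 25 measured rose and 7 fell, and with IFNb in SCR 6 rose and 9 fell (medians 0.10 and -0.06), where 41.1% and 45.1% of all sums were called. NDUFB9, of complex I, rose with MPS1i by 1.17 ± 0.18 (adjusted p = 1.64e-07). ATP5F1B, the catalytic subunit of ATP synthase, rose with MPS1i by 0.81 ± 0.14 (adjusted p = 1.40e-06), and COX10, which makes heme for cytochrome oxidase, fell by 0.65 ± 0.15 (adjusted p = 2.29e-04). CYCS, cytochrome c, rose with IFNb by 0.95 ± 0.13 in SCR (adjusted p = 5.99e-10) and 0.74 ± 0.12 in IFNAR1sg (adjusted p = 1.04e-05). UQCRC2, of complex III, rose with IFNb in SCR by 0.68 ± 0.11 (adjusted p = 1.26e-07).

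The exosome and its cofactors, which degrade RNA outside the mitochondrion, were read for comparison. With IFNb in SCR 4 of 16 measured rose and 4 fell, where 45.1% of all sums were called. EXOSC1, an exosome cap subunit, rose by 1.63 ± 0.20 (adjusted p = 1.25e-10) and EXOSC10, a nuclear exonuclease of the exosome, by 0.86 ± 0.14 (adjusted p = 2.25e-07). ZCCHC8, of the nuclear exosome-targeting complex, fell by 1.52 ± 0.24 (adjusted p = 8.17e-08). With MPS1i in SCR 3 rose and 5 fell, among them XRN1, the cytoplasmic 5′ exonuclease, with a change of -0.73 ± 0.15 (adjusted p = 6.76e-05). Over the 144 measured genes of these lists, 28 rose and 39 fell with MPS1i in SCR, and 39 rose and 51 fell with IFNb. Over all 15094 sums the shares were 25% higher and 16.1% lower with MPS1i, and 16% and 29.1% with IFNb. Without TMM factors these splits were 19 and 50, and 26 and 66. The shares above belong to the fit with TMM factors, and none is given for the fit without them. The median of all sums was also lower without TMM factors, at 0.02 against 0.19 with MPS1i and -0.60 against -0.28 with IFNb.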

How the data were processed

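RNA collected with the J2 antibody from NCI-H1944 cells was measured in 12 libraries by stranded total RNA sequencing. The authors deposited raw counts of reads per stranded genomic row. STAR and featureCounts, the trimmers cutadapt, Trim Galore and Trimmomatic, HOMER, and the builds GRCh38 and hg38, are named per the submitters' processing notes; strand, multimapping and overlap settings are not given in the sources used here. Totals were 3739443 to 7430687 reads per library. No column was left unmapped to a sample.

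Rows were placed on GENCODE release 29. For tests, edgeR 4.0.16 (R 4.3.3) fitted its quasi-likelihood model to the counts on 1 coefficient per group, all 12 libraries together, after filterByExpr (minimum count 10, minimum total 15, proportion 0.7), which left 89111 rows. Library sizes were summed over these rows and scaled by TMM. The same sizes served 15094 sums: rows wholly within the body of a single gene on its strand, and each chrM strand. The spread of each feature was drawn toward that of all features. Prior degrees of freedom were 75.96 for the sums and 72.8 for the rows, beside 6 residual ones. Calls had a Benjamini-Hochberg adjusted p under 0.05 over all features. Standard errors were taken as log2 change over root F, which is unreliable near 0. Strand ratios (0.5 added to each strand) and chrM shares were tested by exact two-sided permutation, genotype within treatment (216 relabellings) or treatment within genotype (36). In simulated counts for MPS1i minus DMSO in SCR over 14076 features, 100% and 94% of 50 genes raised or lowered 4-fold were recovered. For 50 changed 2-fold the shares were 52% and 44%, and 10 unchanged features were called. The simulated spread was set larger than the common dispersion fitted to the sums (0.00882), so these rates describe the simulation only.

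Named genes were the members, the tested chrM rows and, of each list, the 3 smallest p with MPS1i and the 2 with IFNb in SCR among those called; likeness took the 5 highest Pearson correlations. Members and lists were chosen with earlier results of these data known. Alternatives were other size factors, DESeq2 1.42.0, no filter, fewer libraries, a replicate block and other rules for rows.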

Additional observations from a re-analysis of the deposited data

Results flagged for a closer look

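The IFNb change of plus-strand mitochondrial RNA differed between genotypes when that difference was itself tested: 0.96 ± 0.14 (change in SCR minus change in IFNAR1sg, log2, n = 2 libraries a group; edgeR adjusted p = 7.80e-08). The plus strand was higher with IFNb in both SCR libraries and lower in both IFNAR1sg libraries than in their controls.

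The IFNb change of PNPT1 also differed between genotypes, by 0.96 ± 0.19 (edgeR adjusted p = 3.74e-05), with a rise in both.

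The MPS1i change of PNPT1 differed by 0.97 ± 0.20 (edgeR adjusted p = 7.64e-04). PNPT1 was higher in both SCR MPS1i libraries than in both controls, and in IFNAR1sg the MPS1i values lay within the DMSO range. The PNPT1 row with the most reads was not called for this difference (-0.0049, edgeR unadjusted p = 0.989, with an SE that is unreliable this near 0). Both IFNb results rest on the SCR IFNb libraries, which held reads in 295367 and 296843 rows, and the part of this in them was not tested.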

How the results depend on the processing

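PNPT1 kept its direction and its side of the threshold under every setting tried, except that its near-zero MPS1i change in IFNAR1sg took either sign. Sizes did move. Over the settings that kept all libraries of a contrast, its IFNb change in SCR ran from 1.25 to 1.61. Its IFNb difference between genotypes ran from 0.68 to 1.03, and that of the plus strand from 0.68 to 1.02. The SUPV3L1 sum rests on 2188 reads. Its MPS1i change in SCR was -0.15 without TMM factors, -0.0312 with DESeq2 size factors, -0.0316 with DESeq2, -0.055 with only the groups compared and -0.47 without exon-sharing rows. Its IFNb change in SCR was -0.14 without TMM factors, -0.0290 with only the groups compared and -1.47 without exon-sharing rows, where the IFNb difference between genotypes was -0.96. Without TMM factors the minus strand changed by -0.26 with MPS1i in both genotypes and by -0.31 in the IFNb difference, which was 0.029 with DESeq2 and with its size factors. The plus-strand change with IFNb in IFNAR1sg was -0.41 and not called with DESeq2, and the MPS1i difference of that strand was called without TMM factors (0.43) and with no filter (0.46). The genotype difference in strand ratio was -0.019 without both SCR IFNb libraries, a setting chosen after seeing the data. For turned signs and lost calls the cause was not tested.

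The member rows tested were 4 of chrM, 16 of PNPT1 and 6 of SUPV3L1. Over all rows tested, 17.5%, 33%, 17.3%, 0.68% and 12.2% were called in the 5 contrasts that follow. Called member rows, in either direction, numbered 5, 12, 2, 3 and 4 (MPS1i and IFNb in SCR, MPS1i and IFNb in IFNAR1sg, IFNb difference). With no filter they were 1, 5, 0, 1 and 0, and with DESeq2 1 for MPS1i in IFNAR1sg and 2 for the IFNb difference. The shares above belong to the main fit of 89111 rows, whereas with no filter all 2830514 rows with reads were tested. Shares of all features called are not given for the other settings, nor for the fits below that leave out 1 library. Their counts of calls therefore have no background beside them. Of the lists, 1 gene was called between genotypes with DMSO, and 0 with DESeq2, with only the groups compared, without exon-sharing rows or with rows that only overlap a gene. Without exon-sharing rows 6 list genes, against 10, were called for the MPS1i difference.

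The replicate block called the MPS1i difference of the plus strand (0.47, adjusted p = 6.00e-04) and 2 member rows in that contrast, and no other change of call came from it for the 4 sums. Over all tested sums, same-numbered libraries did not deviate together (15 pairs of groups, r from -0.06 to 0.08). Counting noise in small sums can hide a shared deviation, so this cannot show whether the numbers pair the samples.

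Leaving out 1 library at a time, where a group of 1 is assumed to vary like the others, gave these ranges. For SUPV3L1 they were -0.12 to 0.18 and -0.20 to 0.50 (MPS1i and IFNb in SCR), -0.069 to 0.46 and -0.43 to 0.089 (in IFNAR1sg), -0.40 to 0.13 (genotypes with DMSO), and -0.44 to 0.074 and -0.0059 to 0.69 (MPS1i and IFNb differences). For the minus strand they were -0.31 to 0.093 (MPS1i in IFNAR1sg), -0.28 to 0.12 (genotypes), and -0.19 to 0.23 and -0.27 to 0.14 (differences). For the plus strand they were -0.42 to -0.27 (IFNb in IFNAR1sg) and 0.22 to 0.74 (MPS1i difference), and for PNPT1 -0.032 to 0.046 (MPS1i in IFNAR1sg). Called rows ranged from 3 to 7, 1 to 2, 0 to 2 and 2 to 4 (MPS1i in SCR, in IFNAR1sg, MPS1i and IFNb differences), and called list genes from 41 to 65 (MPS1i in IFNAR1sg) and 0 to 1 (genotypes).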

Other observations

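Across the 12 libraries, the gene sums whose log2 levels (CPM + 1) most resembled PNPT1 were NAPA, a vesicle-fusion protein (Pearson r = 0.97), MRPL44, a mitochondrial ribosomal protein (0.97), RNF213 (0.96), the interferon-induced IFI35 (0.96) and CHROMR, a long noncoding RNA (0.96), of 10571 sums with at least 20 reads a library on average. RNF213 rose with MPS1i in SCR by 1.13 ± 0.10 and in IFNAR1sg by 0.27 ± 0.10 (adjusted p = 4.03e-16 and 0.0224), and MRPL44 changed by 0.49 ± 0.17 and -0.20 ± 0.17 (adjusted p = 0.0175 and 0.368). For SUPV3L1 the most alike sum was MUC20-OT1 (0.84). For the plus strand of chrM it was ANO5 (0.96), and for the minus strand PCDH7 (0.94), a protocadherin that fell with IFNb, at changes of -1.01 ± 0.13 in SCR and -0.66 ± 0.12 in IFNAR1sg (adjusted p = 1.56e-10 and 4.75e-05). These values describe 12 points in 6 groups that share libraries and scaling, and no p is given for the correlations.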
